A study of Mus musculus with 4 samples.

Results

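The cells described here are luminal progenitor (LP) cells of the diestrus mammary gland in which the Wnt-pathway ligand gene Rspo1 was detected. They numbered 66 of 283 LP cells, within 2439 cells of the diestrus library and 10555 cells of the whole series. A cell was placed in the LP class when at least 3 of the 5 genes Cd14, Lalba, Plb1, Atp6v1b1 and Aldh1a3 had a count. It could hold at most 1 of 6 mature luminal (ML) genes (Stc2, Upk3a, Plac8, Tspan1, Prlr, Cited1) and at most 2 of 7 basal genes (Krt5, Krt17, Acta2, Myl9, Tagln, Mylk, Cnn1). Members had at least 1 Rspo1 count, so their Rspo1 level and the levels of these 18 rule genes are a description of the choice and not a finding.

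The study profiled single epithelial cells of FVB/NJ mice on the 10x Chromium platform, which counts molecules from the 3' ends of transcripts. Adult females of 10 weeks were staged by vaginal cytology, and glands from 2 mice were pooled for diestrus and from 2 mice for estrus. The pubertal library came from 6 mice of 5 weeks. All cells were sorted as lineage-negative, CD24-positive epithelium, and the labels name no treatment. Median depth per cell was 3974 counts in diestrus (11868593 in all), 3236 in estrus and 6829 in the summed pubertal library. Each stage was 1 library. The stage, the pool of mice and the library therefore cannot be told apart, and cells of the pooled mice could not be assigned to a mouse.

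R-spondins are secreted proteins that bind the receptors LGR4, LGR5 and LGR6 and remove the ubiquitin ligases RNF43 and ZNRF3, which otherwise clear Frizzled receptors from the cell surface. The result is a stronger response to Wnt ligands. LP cells are hormone receptor-negative ductal cells that can give rise to the secretory alveolar cells, and diestrus is the progesterone-dominated phase of the ovarian cycle, when side branches and alveolar buds form. ML cells carry the progesterone receptor and release paracrine signals such as RANKL and WNT4.

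Rspo1 (ENSMUSG00000028871) lies on the plus strand of mouse chromosome 4. The stretch at its annotated start is shown because Rspo1 was the gene that defined the cells. It is the plus strand of chr4:124986180-124986459 in GRCm38.p6, from RefSeq, with 250 bases before the start and 30 after it. Capitals mark a pair of overlapping matches to the kB consensus, the site class bound by NF-kB factors. The matches begin at positions -3 and -2 and run past the annotated start.
Rspo1 promoter: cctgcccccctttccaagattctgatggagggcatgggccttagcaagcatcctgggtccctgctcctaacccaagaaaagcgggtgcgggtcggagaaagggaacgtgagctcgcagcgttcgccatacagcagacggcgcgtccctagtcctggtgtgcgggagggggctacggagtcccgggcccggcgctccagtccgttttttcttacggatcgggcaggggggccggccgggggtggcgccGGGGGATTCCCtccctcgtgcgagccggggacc
The window was 67.5% G or C and held 25 CG pairs. The kB consensus was found on either strand in 4.51% of 32851 mouse promoter windows of 300 bases. The Rspo1 window was 280 bases long, so the lengths differ. No match was found in the Rspo1 window for AGAACA, the half-site shared by progesterone and glucocorticoid receptors (present in 18.97% of windows), for TTCNNNGAA, a STAT site (8.30%), or for TATAAA (13.62%). The motifs were chosen with the sequence in view, and a match of letters is a description only.

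Rspo1 was detected in 23.3% of diestrus LP cells (exact 95% interval 18.5 to 28.7%), with 206 counts in all. The corresponding share was 1.11% of 630 ML cells (0.448 to 2.28%) and 0.392% of 1021 basal cells (0.107 to 1.0%) in the same library, at median depths of 4458 and 3416 counts per cell against 4414 in LP cells. The level summed over cells was 136 counts per 1000000 counts (CPM, 95% Poisson interval 118 to 156) in LP, 2.75 (1.26 to 5.22) in ML and 0.866 (0.236 to 2.22) in basal cells. The shares in ML and basal cells were taken as the background level of the library. These intervals, like all below, cover counting error only and not variation between mice. Those of summed counts and of their ratios also leave out variation between cells, and are too narrow where cells differ widely.

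Few LP cells of the other stages had a count. In estrus 1 of 323 LP cells was positive (0.310%, interval 0.00784 to 1.71%), and in puberty 5 of 1111 (0.450%, 0.146 to 1.05%). The level was 0.739 CPM (0.0187 to 4.12) in estrus and 1.54 CPM (0.823 to 2.64) in puberty. The puberty values sum 2 tables of the same barcodes, and some molecules are counted in both, so these counts are not all independent. The single tables gave 3 of 1055 LP cells (0.284%) and 3 of 891 (0.337%). Thinning each cell to 2000 counts lowered the expected diestrus share to 13.98% of the 264 LP cells deep enough, against 0.128% of 288 in estrus and 0.219% of 1111 in puberty. The intervals of diestrus and of the other stages did not overlap. With 1 library per stage this compares libraries and not stages.

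**Figure D1:**
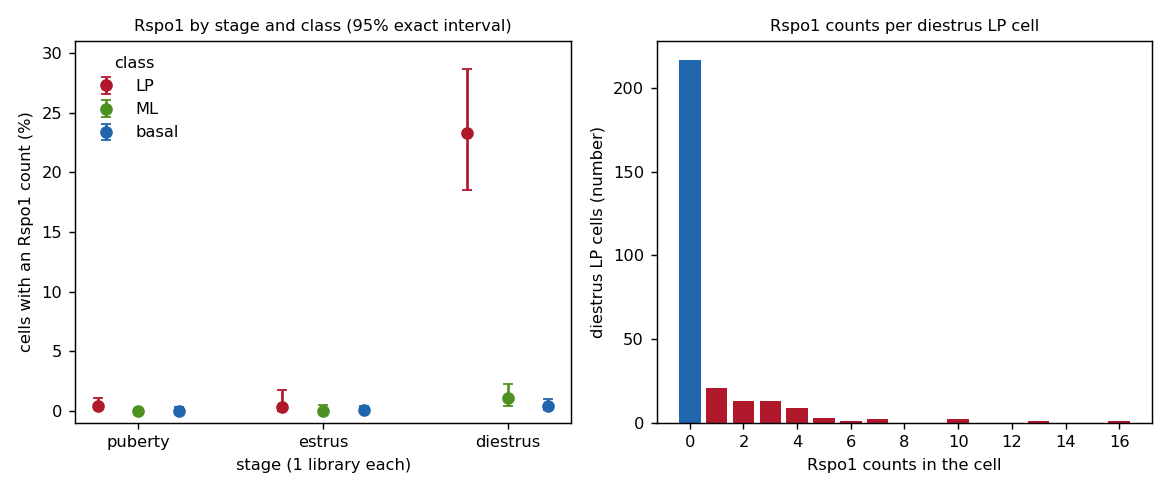
Left, share of cells with an Rspo1 count (%, points) with its exact 95% interval (bars) for LP, ML and basal cells of the puberty, estrus and diestrus libraries. Right, number of diestrus LP cells by Rspo1 counts in the cell. Diestrus LP cells stood at 23.3%, every other class and library at or below 1.11%.

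Within the 66 members the Rspo1 count ranged from 1 to 16, with a median of 2, and 32 cells had at least 3. The 10 highest cells held 84 of the 206 counts (40.8%). Scaled to depth, the level ran from 0.611 to 15.1 counts per 10000, with a median of 3.55. Over all 283 LP cells the mean was 0.728 counts and the variance 3.61, so the variance was 4.96 times the mean. At the edge of the rule, 21 cells had exactly 1 count and 217 had none.

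The LP genes were themselves spread unevenly among members. Cd14, a co-receptor for bacterial lipopolysaccharide, had a count in 95.5% of members and 96.3% of LP cells without Rspo1, and Plb1, a phospholipase, in 89.4% and 75.6%. Aldh1a3, a retinaldehyde dehydrogenase, had one in 47.0% and 25.3%. Atp6v1b1, a subunit of the vacuolar proton pump, had one in 77.3% and 85.7%. The widest gap was that of Lalba, which encodes the milk protein alpha-lactalbumin, with a count in 15 of 66 members (22.7%) and 156 of 217 other LP cells (71.9%). These are rule genes, and a cell without Lalba had to show 3 of the other 4. The shares cover all 66 members and all 217 other LP cells without a depth match, and members were deeper. The part of depth in these gaps was not tested.

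More Rspo1-positive cells lay outside the LP class than inside it. Of 202 positive cells in the diestrus library, 66 were members, 7 were ML and 4 were basal. A further 95 met the limits on ML and basal genes but had under 3 LP genes, of which 63 had exactly 2. Another 26 had at least 2 LP genes but also over 1 ML gene, and 4 fell elsewhere. Among cells with exactly 2 LP genes that met the other limits, 63 of 177 were positive (35.6%, interval 28.6 to 43.1%), against 45 of 153 with 3 genes (29.4%), 21 of 120 with 4 (17.5%) and 0 of 10 with 5. The exact upper limit of 0 of 10 was 30.8%. Of the 95 cells short of LP genes, 3 had a Lalba count, 64 a Cd14 count and 68 a Plb1 count.

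Members held more counts than the other LP cells. Their total ranged from 2647 to 20370 counts with a median of 7473, against 1468 to 16333 and a median of 4022 in LP cells without Rspo1. The median number of genes detected was 2355 against 1408. The positive share was 7.04%, 9.86%, 22.9% and 53.5% from the shallowest to the deepest of 4 equal depth groups of LP cells. The Rspo1 level was 82.5, 55.9, 72.6 and 213 CPM over the same groups, so the deepest group stood apart on that scale as well. The part of detection in this relation was not tested.

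Each member was therefore paired with 1 LP cell without Rspo1 of nearly the same total (within 0.05 on the log10 scale). Partners were found for 61 of the 66 members, and 5 members had none. The 61 members held 445900 counts (median 7218 per cell) and the 61 matched LP cells 433162 (median 6740). Median mitochondrial share was 0.515% and 0.419%, and ribosomal protein genes took 26.5% and 25.2% of counts. All ratios below compare these groups unless stated otherwise. They carry no p-value, since cells of 1 library are not replicates.

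**Figure D2:**
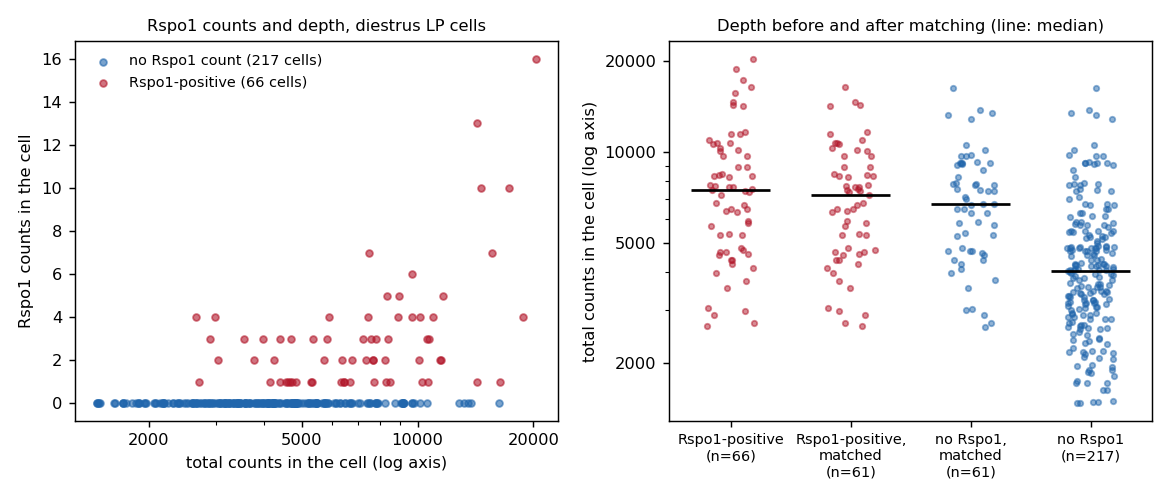
Left, Rspo1 counts against total counts per cell (log axis) for 66 Rspo1-positive and 217 other diestrus LP cells, each point a cell. Right, total counts (log axis) before and after matching, with the median as a line. The medians were 7473 and 4022 before matching and 7218 and 6740 after it.

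Genes were compared where the 2 groups together held at least 100 counts, leaving out rule, mitochondrial and ribosomal protein genes. Of 1246 genes, 110 were higher by at least 1.5-fold in members (8.83%) and 84 were lower (6.74%). The median log2 ratio over all genes was 0.14, and Spp1 alone took 2.70% of all counts in matched cells. With TMM factors, which rescale for such composition, the median was 0.01, 59 genes were higher (4.74%) and 101 lower (8.11%). The share of higher genes among those past the fold was thus 56.7% by library total and 36.9% with TMM factors. Changes are given by library total, and the TMM value is added for those it moves across the fold.

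The lower genes named here were 15 chosen by the interval bound nearest to no change. Spp1, which encodes the secreted phosphoprotein osteopontin (ENSMUSG00000029304, GRCm38 chromosome 5, 104435118 to 104441050, plus strand), differed most in counts. It ranged per cell from 0 to 282 counts per 10000 with a median of 1.36 in members, against 0 to 1493 with a median of 188 in matched LP cells. The summed level was 1216 against 27013 CPM, 22.2-fold lower (log2 ratio -4.47, interval -4.60 to -4.35), and a count was seen in 35 and 57 of the 61 cells. The groups overlapped at the low end, since some matched LP cells also lacked Spp1.

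The iron carrier transferrin, Trf, had a median of 39.0 counts per 10000 in members (range 4.24 to 165) and 120 in matched cells (5.66 to 434). Its log2 ratio was -1.49 (-1.56 to -1.41), with every cell of both groups positive. Cst3, which encodes the protease inhibitor cystatin C, had medians of 10.1 and 60.3 counts per 10000 and a log2 ratio of -2.63 (-2.73 to -2.52). Both groups spanned a wide range of these genes, and the shift lay in the bulk of the cells rather than in a few.

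Csn3, which encodes kappa-casein, had a median of 5.61 counts per 10000 in members and 21.7 in matched cells, with a log2 ratio of -1.93 (-2.08 to -1.78). The iron-siderophore binder Lcn2 had medians of 13.7 and 41.7 and a log2 ratio of -1.60 (-1.73 to -1.47). Hey1, a transcription factor downstream of Notch, had 25 counts in 13 members and 95 counts in 37 matched cells, a log2 ratio of -1.97 (-2.67 to -1.32). The folate receptor Folr1 had 49 and 150 counts (-1.66), and the water channel Aqp5 had 27 and 115 (-2.13).

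Several of the steepest ratios rested on few member counts. Apod, a lipid-binding lipocalin, had 3 counts in 3 members and 203 in 18 matched cells (log2 ratio -6.12, interval -8.41 to -4.55), with 42.4% of the latter in 1 cell. The peptide hormone gene Cck had 5 counts in 4 members and 151 in 37 matched cells (-4.96, -6.60 to -3.70). Lrg1, a secreted leucine-rich glycoprotein, had 14 counts against 274 (-4.33, -5.22 to -3.56). Chil1, a chitinase-like secreted protein, had 36 against 391 (-3.48), with 52.8% of the member counts in 1 cell. The lysosomal acid lipase gene Lipa had 19 against 87 counts (-2.24), the lipid carrier gene Apoe 81 against 353 (-2.17) and the matricellular gene Cyr61 203 against 511 (-1.37).

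The higher genes had smaller ratios and mixed roles. Tmsb4x, which encodes the actin-sequestering thymosin beta-4, had medians of 27.1 and 14.3 counts per 10000 (log2 ratio 0.90, 0.77 to 1.04). Per cell it ranged from 6.44 to 73.0 in members and from 0 to 51.0 in matched LP cells. The groups overlapped, and every member but not every matched cell had a count.

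Cd24a encodes the surface glycoprotein on which the epithelium was sorted, with medians of 6.52 and 3.10 counts per 10000 (0.89, 0.63 to 1.16). Ptma, the histone-binding prothymosin alpha, had medians of 76.3 and 46.5 (0.64, 0.57 to 0.72), and with TMM factors its log2 ratio was 0.51, within 1.5-fold. The histone chaperone Set had 212 counts against 93 (1.15, 0.79 to 1.51), the helicase subunit Mcm6 74 against 29 (1.31, 0.67 to 1.98) and Trp53, the tumor suppressor p53, 139 against 66 (1.03, 0.60 to 1.48). Each of these was detected in more members than matched cells, except Ptma, which was in all of both.

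Ifitm3, an interferon-induced membrane protein, had 176 counts against 80 (1.10), the NADPH oxidase subunit gene Cyba 267 against 139 (0.90) and the calcium- and integrin-binding gene Cib1 124 against 57 (1.08). The phospholipid scramblase gene Plscr2 had 132 against 55 counts (1.22), Bcl7c, a subunit of the BAF chromatin remodelling complex, 87 against 30 (1.49), and the splicing factor gene Srsf11 70 against 30 (1.18). Aars, alanyl-tRNA synthetase, had 87 against 32 (1.40). Cel, the bile salt-dependent lipase found in milk, had the top rank with 92 counts against 26 (1.78, 1.14 to 2.47). For Cel, 43.5% of the member counts came from 1 cell, and it was seen in 18 members and 16 matched cells.

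**Figure D3:**
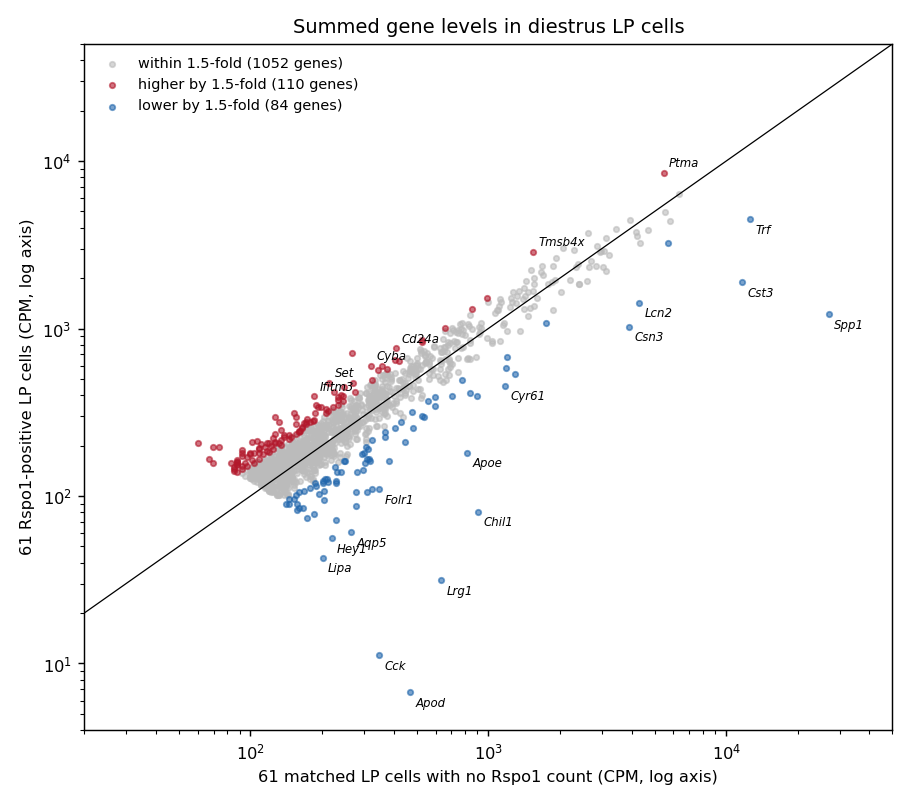
Summed level (CPM, log axes) of 1246 genes in 61 Rspo1-positive LP cells against 61 matched LP cells without Rspo1, each point a gene, colored past 1.5-fold, with the line of equality. Named lower genes are labelled, as are named higher genes above 250 CPM on average, except 1 not reported here. Spp1, Cst3, Trf and Apod lie far below the line.

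Some of these genes share 3' sequence with other annotated transcripts. Among 31-base words in the last 300 bases, the share also found in another gene was 67.7% for Trf, 63.2% for Set, 50% for Aars, 36.6% for Bcl7c, 32.8% for Ptma, 9.63% for Ifitm3 and 9.24% for Spp1. Counts of these genes may be affected, but the share of words is not the size of an error. Its effect on the counts and ratios was not tested. The other 23 named genes were at or below 5%.

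As a description, since these cells and genes were chosen on the same contrast, 2 genes are given by Rspo1 count. In cells with 1 Rspo1 count, Spp1 stood at 2794 CPM, in cells with 2 at 2654 and in cells with 3 or more at 225, against 32510 in all LP cells without Rspo1. Set stood at 462, 341 and 509 CPM against 181. The cells with 1, 2 and 3 or more counts were also deeper, with medians of 6330, 7363 and 8340 total counts against 4022.

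**Figure D4:**
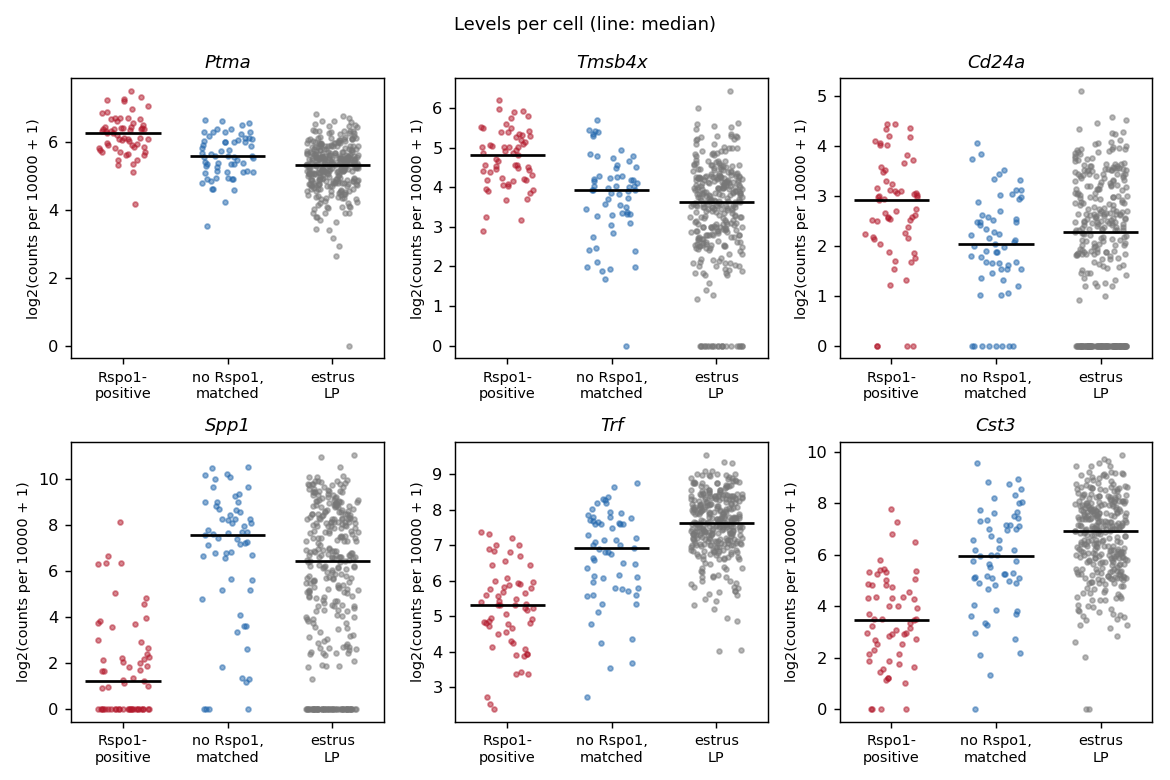
Level per cell, log2(counts per 10000 + 1), of the 3 higher and 3 lower named genes with most counts, in 61 Rspo1-positive LP cells, 61 matched LP cells and 323 estrus LP cells. Lines are medians. Median Spp1 was 1.36 counts per 10000 in members and 188 in matched cells, while the cells of each pair of groups overlap for every gene.

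LP markers not used by the rule were mostly lower in members. Of 15 such genes, 12 could be compared, 9 were lower and none higher, with a median log2 ratio of -1.19 against 0.14 over all genes. In LP cells without a Lalba count the median was -0.55 over the 8 genes that could be compared, within 1.5-fold. The 9 were Spp1, Csn3, Trf, Hey1, Lcn2, Tspan8 (-1.57), Lbp (-0.90), Ltf (-0.80) and Elf5 (-0.64), the last a transcription factor of alveolar fate. Wfdc18 (0.49), Ehf (0.16) and Mfge8 (-0.44) lay within 1.5-fold, and Kit, the stem cell factor receptor, had 13 counts in each group.

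Members stood between the other LP cells and the other classes in these markers. Summed over the 15 genes, members stood at 14815 CPM and matched LP cells at 54885, against 483 in ML and 1967 in basal cells. Per cell the sum ranged from 48.1 to 428 counts per 10000 in members (median 144), whereas the ML median was 1.35 and the basal median 17.7. The 12 ML markers outside the rule summed to 307 CPM in members, 180 in matched cells and 16404 in ML cells. Esr1, Pgr, Tbx3, Cxcl15 and Fxyd2 were at 0 in members. Cited4 (41 against 9 counts) and Ptn (56 against 20) had the largest excess.

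The 12 basal markers outside the rule summed to 200 CPM in members and 80.8 in matched cells, against 12716 in basal cells. The basal keratin gene Krt14 had 57 counts in 19 members and 13 counts in 6 matched cells (log2 ratio 2.09, 1.20 to 3.08), while Trp63, Cxcl14 and Id4 were at 0 in members. Of 10 immune markers, 9 were at 0 in members. The exception was Cd74, the invariant chain, with 13 counts in 11 members and 2 in 1 matched cell. Endothelial, fibroblast and red cell lists held 4, 1 and 0 counts in members, and 6, 1 and 1 in matched cells. The part of cell doublets or of free RNA in the Krt14 and ML marker counts was not tested.

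Other members of the R-spondin system were near the limit of detection in Rspo1-positive cells. Rspo2, Rspo3, Rspo4, Lgr4 and Znrf3 were at 0 in the 61 members. The receptor Lgr6 had 7 counts in members and 9 in matched cells, the ligase Rnf43 had 2 and 5, and Lgr5 had 1 and 0. A count of 0 over the 61 members allows a level of up to 6.73 CPM. Lgr6 was 35.7 CPM in basal cells and 0 in ML cells.

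Of 19 Wnt ligand genes, 15 were at 0 in members. Wnt5b, a ligand of the noncanonical branch, was the only one with enough counts to compare, with 81 counts in members and 96 in matched cells (log2 ratio -0.29, -0.73 to 0.15). Among 24 receptor and inhibitor genes, 14 were at 0 in members, and the highest count over both groups was that of the secreted Wnt inhibitor Sfrp2, with 3 counts in members and 23 in matched cells (-2.98, -5.36 to -1.25). Targets of the pathway gave little to compare. Axin2, the general negative-feedback target, had 2 counts in members and 1 in matched cells, Myc 47 and 42, Ccnd1 187 and 156 (0.22) and Sox9 63 and 50 (0.29). Neither of the target genes compared, Ccnd1 and Sox9, passed 1.5-fold in either direction.

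The hormone-signal genes of ML cells were near 0 in members. Tnfsf11, the RANKL gene, had 1 count in members and 0 in matched cells, and stood at 82.8 CPM in ML cells. The gene of its receptor RANK, Tnfrsf11a, had 2 counts in members and 8 in matched cells. Wnt4 had 5 and 1 counts, and 66.3 CPM in ML cells. Of 16 genes on the list, 3 could be compared and 2 were lower, Id2 (-0.94, -1.45 to -0.45) and Elf5, with a median of -0.64.

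Milk genes did not move together. Of 19, 7 could be compared and 2 were lower (Csn3 and Folr1), with a median log2 ratio of -0.39. Beta-casein, Csn2, had 997 counts in members and 656 in matched cells (0.56, 0.42 to 0.71), Csn1s2a 608 and 482 (0.29), and Csn1s1 822 and 1046 (-0.39). None of these 3 passed 1.5-fold. Median Csn2 per cell was 2.96 counts per 10000 in members and 0 in matched cells, with 38 and 29 cells positive.

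Some genes of antigen presentation on MHC class I were higher. Of 15 genes, 6 could be compared and 4 were higher, with a median log2 ratio of 0.71 against 0.14 over all genes. Psmb8, an immunoproteasome subunit, had 156 against 82 counts (0.89), its partner Psmb9 71 against 38 (0.86), the peptide-loading gene Tapbp 85 against 47 (0.81), and the class I gene H2-K1 582 against 369 (0.62). With TMM factors H2-K1 was at 0.49, within 1.5-fold. The list median was 0.36 in LP cells without a Lalba count (4 genes), 0.35 without a depth match (9 genes, against 0.22 over all genes) and 0.38 under stricter limits on ML and basal genes (4 genes). H2-K1 shares 23.6% of its 3' words with H2-D1 and other genes.

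In the NF-kB list 2 of 20 genes could be compared, at log2 ratios of -0.29 and 0.55, and none passed 1.5-fold. The list median was 0.13, against 0.14 over all genes. Nfkbia, the inhibitor induced by the pathway, had 1344 counts against 889 (0.55, 0.43 to 0.68). The 20 genes summed to 2008 counts in members and 1467 in matched cells, and Nfkbia held most of both. Of the 14 other genes with at least 10 counts, all below the count limit, 2 are given that were picked for their high ratios. They do not stand for the list. Relb, a subunit of the noncanonical branch, had 62 against 22 (1.45, 0.73 to 2.23) and the adhesion gene Icam1 69 against 19 (1.82, 1.07 to 2.63). Innate defence genes were divided, with 1 higher and 3 lower of 8 compared and a median of -0.04. The higher one was the chemokine gene Cxcl16 (0.81). Lists of secretory pathway (0 higher and 2 lower of 11), luminal transcription factor (0 and 4 of 10) and immediate early genes (1 and 3 of 18) had medians of -0.09, -0.09 and -0.20. Over all genes 8.83% were higher and 6.74% lower. The higher immediate early gene was Dusp1 (0.67), which came within 1.5-fold with TMM factors.

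**Figure D5:**
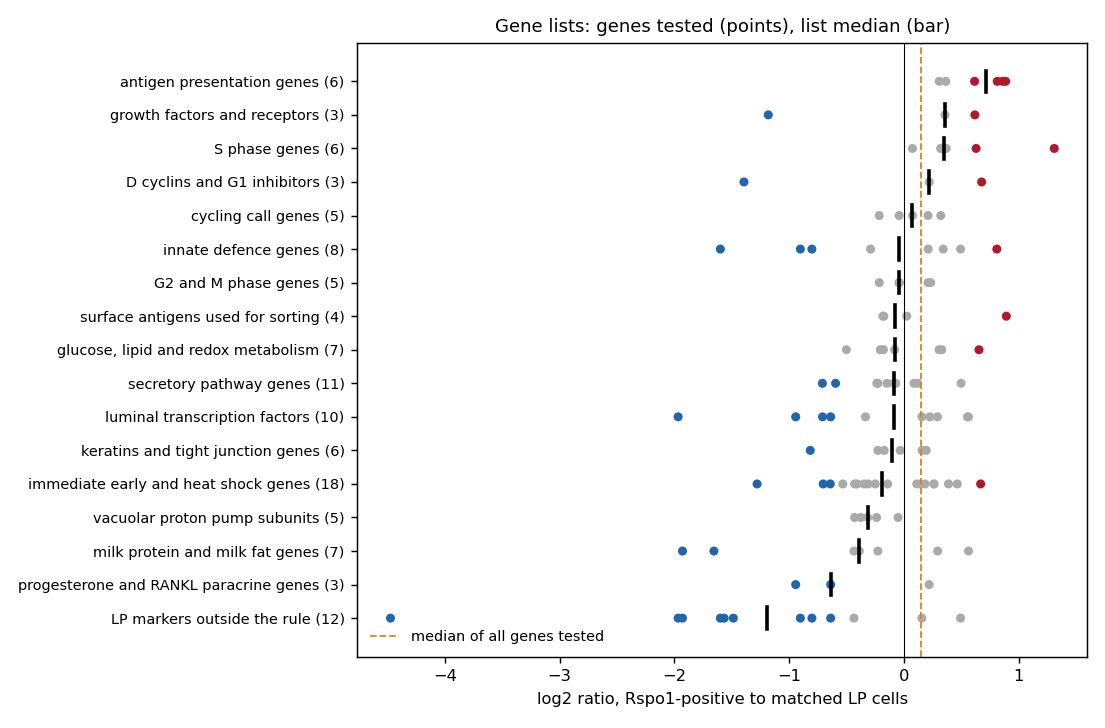
Log2 ratio of Rspo1-positive to matched LP cells for genes of 17 lists with at least 3 genes compared (number in parentheses). Points are genes, colored past 1.5-fold, black bars list medians, and the dashed line the median of all 1246 genes (0.14). LP markers lie lowest (median -1.19) and antigen presentation genes highest (0.71).

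A larger share of members than of matched cells carried cell cycle transcripts, but the difference was not resolved. Cells with counts for 3 or more of 10 proliferation genes were called cycling. This held for 26 of 61 members (42.6%, exact interval 30.04 to 55.94%) and 17 of 61 matched cells (27.9%, 17.1 to 40.8%), a difference of 14.8 points (Newcombe interval -2.16 to 30.5). Mki67, the proliferation antigen, had a count in 8 members and 8 matched cells.

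Without matching, 45.5% of 66 members and 8.29% of 217 other LP cells were cycling. Cycling cells were concentrated in the deepest group. There 25 of 38 members (65.8%, interval 48.6 to 80.4%) and 17 of 33 other LP cells (51.5%, 33.5 to 69.2%) were cycling. In the other 3 depth groups, 5 of 28 members (17.9%, 6.06 to 36.9%) and 1 of 184 other LP cells (0.543%, 0.0138 to 2.99%) were. Cells were not matched on depth within these groups. Among S phase genes 2 of 6 compared were higher (Mcm6 and Dut, median 0.35), and of 5 G2 and M phase genes none passed 1.5-fold (median -0.04). With TMM factors Dut was at 0.50, within 1.5-fold. Cdk4, the kinase that partners D cyclins, was at 0.68 (0.55 with TMM factors) and the cell cycle inhibitor Cdkn1a at -1.39 (-1.91 to -0.90).

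Leaving out cycling LP cells kept 35 pairs. By the ratio alone, 29 of the 30 named genes remained past 1.5-fold in the same direction, the exception being Ptma (0.54). Intervals reached inside 1.5-fold for some, such as Srsf11 (0.17 to 1.98) and Folr1 (-1.45 to -0.14). They did not for others, such as Spp1 (-3.91 to -3.64). Spp1 was then at -3.77, Trf at -1.46 and Set at 1.97. Of the 493 genes compared in these pairs, 98 were higher and 58 lower. Of these, 22 and 41 were also called in the main comparison. The named genes were chosen on the same contrast, so the number that remained is a description only.

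The comparison was repeated without Lalba. In LP cells without a Lalba count, 38 pairs could be formed. All 30 named genes but Apoe (0.13) kept their direction, and 23 remained past 1.5-fold by the ratio alone. The ratios of Folr1 (-0.24), Tmsb4x (0.43), Cd24a (0.25), Trp53 (0.42) and Ptma (0.30) came within 1.5-fold. Lrg1 went from -4.33 to -0.85, Lipa from -2.24 to -0.81, Trf from -1.49 to -0.80 and Lcn2 from -1.60 to -0.88. Spp1 was at -3.75, Cck at -4.04, Cst3 at -1.95 and Set at 0.79. This comparison was added after seeing the data. Of 661 genes compared in it, 23 were higher and 34 lower. Of these, 13 and 17 were also called in the main comparison.

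The 95 Rspo1-positive cells short of LP genes lay on the same side of LP cells without Rspo1 as the members did for the genes below. Spp1 stood at 288 CPM in them, 1369 in all 66 members and 32510 in all LP cells without Rspo1. Set was at 404, Trf at 3364 and Csn3 at 1293 CPM, and 32.6% were cycling. The 95 cells were chosen for under 3 LP genes and the LP cells for at least 3. Depth was not matched, with medians of 5133 counts in the 95 and 4022 in LP cells without Rspo1. Cells without Rspo1 that were short of LP genes were not compared, so the part of this choice in the levels was not tested. For comparison, in LP cells of the other stages Spp1 was at 25403 CPM in estrus and 34926 in puberty, Trf at 21744 and 26233 CPM, and Set at 146 and 160 CPM.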

How the data were processed

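The measurements were counts of molecules per gene and cell. Per the labels, the authors sequenced 10x Chromium 3' libraries and made the deposited count tables with Cell Ranger 2.0 on mm10, as given in the submitters' processing notes. The tables were used as deposited, without normalization. The 2 puberty tables shared 5387 barcodes and were summed over these. Diestrus shared 13 barcodes with estrus and 18 with puberty.

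Cells were classed by the rule in the report. ML cells had at least 3 of 6 ML genes, and basal cells at least 4 of 7 basal genes, with limits on the other classes. No doublet caller was run. Members were matched 1 to 1 to LP cells without Rspo1 on log10 total counts. CPM were counts summed over cells, per 1000000 counts. Ratios had exact conditional Poisson intervals at 95%, shares exact Clopper-Pearson intervals, the cycling difference a Newcombe interval, and a count of 0 was read as up to 3 counts. Named genes were the 15 largest and 15 smallest ratios ranked by the interval bound nearest to 1, leaving out pseudogenes and unnamed gene models. The counts over these 30 genes include 1 that is not reported here. The cells and the gene lists were chosen with earlier results of these data known. The script was tested on simulated counts. Tools were Python 3.11.15, scipy 1.17.1 and, for TMM factors, edgeR 4.0.16. Gene positions came from GENCODE M21.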

Additional observations from a re-analysis of the deposited data

How the results depend on the processing

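The positive share of LP cells (23.3%) was 15.9% with at least 2 Rspo1 counts, 16.2% with at least 4 of 5 LP genes, 15.3% without cycling cells and 13.98% after thinning to 2000 counts. The counts of higher and lower genes were 110 and 84 of 1246 genes compared. They became 23 and 26 of 328 with 4 LP genes, and 392 and 165 of 1969 without a depth match. Weights over 10 depth bins gave 231 and 155 of 1969, and cells without a Lalba count 23 and 34 of 661. A minimum of 30 counts gave 546 and 339 of 3404, and 300 counts gave 20 and 25 of 345. A fold of 2 gave 14 and 31 of 1246. The number of genes compared changed with most settings, so these counts are not on a common scale. Lower genes numbered 54 of 651 compared with no ML gene and at most 1 basal gene. Higher genes numbered 59 of 1246 with TMM factors and 171 of 1947 with at least 2 LP genes. The cycling difference (14.8 points) was 37.2 points without a depth match. The causes were not tested. Of 360 values of the named genes under 12 alternatives, 267 stayed within the main interval, 92 moved in size and 1 reversed (Apoe, 0.13 without Lalba-positive cells). Of 180 list medians, 13 moved by more than the list's own spread between quartiles, mainly cell cycle lists, and none of those past 1.5-fold reversed. The alternatives of at least 2 LP genes and of cells without Lalba were chosen after seeing the data. Stages could not be paired because they shared no numbered replicate libraries. The depth-matched cells of diestrus were compared as sums with no test. The pairing was not used in the interval of the cycling difference, which took the groups as independent. Counting depth and the 61 pairs limit the genes compared to 1246.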

Other observations

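The few Rspo1-positive LP cells of the other stages were examined singly. In puberty 5 cells had 5, 4, 2, 1 and 1 Rspo1 counts, and their Spp1 counts were 0, 1, 0, 0 and 1, against a median of 121 over all 1111 pubertal LP cells. At most 1 Spp1 count was seen in 152 of the 1111 (13.7%). Some molecules are counted in both puberty tables, so these counts are not all independent. The single positive LP cell of estrus had 1 Rspo1, 3 Spp1 and 18 Lalba counts, against a median of 32 Spp1 counts over 323 estrus LP cells. These cells were listed after their values were seen, and the relation was not tested.

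Foxi1, a transcription factor of proton-secreting cells, had 3 counts in members and 30 in matched LP cells (log2 ratio -3.36, interval -5.72 to -1.68), and Id1 had 6 and 52 (-3.16, -4.67 to -1.94). Both were below the count limit of the main comparison and were chosen after their values were seen.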
